A study of Mus musculus with 2 samples.

Results

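The superfamily of miR-15/16, miR-103 and miR-107 is a group of mouse microRNAs (miRNAs, short RNAs that guide repression of messenger RNAs) whose guide strands carry the bases AGCAGC at or near the 5′ end. Its members were taken as the array probes named exactly mmu-miR-15a, mmu-miR-15b, mmu-miR-16, mmu-miR-195, mmu-miR-497, mmu-miR-322, mmu-miR-103 and mmu-miR-107, which are 8 of the 1040 miRNA probes on the array. The study profiled ureteric bud cells, the epithelium that branches to form the collecting ducts of the kidney, from mouse embryos at stage E15.5. The embryos carried the Rosa26YFP reporter together with Hoxb7Cre, a recombinase line active in the ureteric bud and the Wolffian duct that precedes it, and YFP-positive cells were sorted from trypsinised kidneys. There was 1 group of 2 samples with the same alleles and no treatment named in the labels, of which replicate 1 was stained with Cy3 and replicate 2 with Cy5. Sample and dye cannot be told apart, and the labels do not say how many embryos were pooled or whether the samples came from separate preparations.

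miRNAs recognise their targets mainly through the seed, bases 2 to 8 of the mature strand. The miR-15/16 group is known for repressing cyclins, cyclin-dependent kinases and the survival factor Bcl2, and its members are encoded as pairs of neighbouring hairpins. miR-103 and miR-107 lie in introns of the pantothenate kinase genes, which serve coenzyme A synthesis, and are known for repressing Dicer, the enzyme that releases mature miRNAs from hairpins. In mice, loss of Dicer from the Hoxb7-Cre lineage is known to disturb kidney development and to give cysts.

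The mature sequences are shown because the members differ by few bases and fall into 2 seed groups, with the seed in capitals, 5′ to 3′, from RefSeq (GRCm38.p6).
miR-15a: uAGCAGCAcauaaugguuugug
miR-15b: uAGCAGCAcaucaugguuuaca
miR-16: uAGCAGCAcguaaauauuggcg
miR-195: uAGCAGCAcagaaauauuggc
miR-497: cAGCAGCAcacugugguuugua
miR-322: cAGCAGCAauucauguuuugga
miR-103: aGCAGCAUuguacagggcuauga
miR-107: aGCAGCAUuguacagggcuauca

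All 8 RefSeq sequences were identical to the target sequences of the array. In the first 6 the bases AGCAGC begin at base 2, and in miR-103 and miR-107 they begin at base 1, so the seed of the latter pair is shifted by a base. The motif AGCAGC, read on the miRNA strand within the first 8 bases, occurred in 10 of 1040 array targets (0.962%). The miR-15/16 seed was shared by 7 targets, the seventh being miR-1907, and the shifted seed by miR-103 and miR-107, 2 targets.

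Counting from base 1 of the first-named miRNA, miR-103 and miR-107 differ by the single substitution G22C. Over the 21 bases they share, miR-16 and miR-195 differ by G10A and U11G, and miR-16 has a further base at its 3′ end. miR-15a and miR-15b differ by A12C, G20A, U21C and G22A. Signal may be shared between such probes. No other probe on the array matched a member at more than 14 bases in an ungapped alignment shifted by up to 6 bases. The GC content of the targets was 47.8% for miR-103 and miR-107, 45.5% for miR-16, and 40.9% to 50% for the other members.

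The hairpins of miR-16 and miR-103 are shown because each mature strand, in capitals, is made from 2 loci that a single probe cannot separate.
Mir16-1: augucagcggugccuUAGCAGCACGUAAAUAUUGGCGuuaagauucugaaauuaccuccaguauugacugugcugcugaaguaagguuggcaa
Mir16-2: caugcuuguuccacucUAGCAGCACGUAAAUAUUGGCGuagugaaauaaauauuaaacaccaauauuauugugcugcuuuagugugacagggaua
Mir103-1: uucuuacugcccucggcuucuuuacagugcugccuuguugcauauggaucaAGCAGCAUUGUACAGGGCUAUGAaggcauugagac
Mir103-2: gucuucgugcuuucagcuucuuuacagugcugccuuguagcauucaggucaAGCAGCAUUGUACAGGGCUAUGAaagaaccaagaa

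In GRCm38.p6, Mir16-1 (chr14:61631880-61631972, minus strand) lies with Mir15a within the long noncoding RNA gene Dleu2. Mir16-2 (chr3:69009902-69009996, plus strand) lies 66 bases from Mir15b (chr3:69009772-69009835, plus strand), within Smc4, a condensin subunit gene. Mir103-1 (chr11:35782396-35782481, plus strand) lies within Pank3, Mir103-2 (chr2:131288052-131288137, plus strand) within Pank2 and Mir107 (chr19:34820687-34820773, minus strand) within Pank1. Mir497 (chr11:70234717-70234800, plus strand) and Mir195a (chr11:70235042-70235135, plus strand) are 241 bases apart. Mir322 (chrX:53054255-53054349, minus strand) lies 200 bases from Mir503 (chrX:53053984-53054054, minus strand), within the gene C430049B03Rik.

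Each miRNA probe was printed as 3 repeat spots per array, and values are raw spot intensities, as deposited, unless stated otherwise. The limit of detection was set at 3 SD above the mean of an array's 560 blank spots, which came to 303.2 units in replicate 1 and 81.1 in replicate 2, and at least 50% of a probe's spots had to exceed it. Blank spots had medians of 203.1 and 58.4 units. Over the whole array of 1040 miRNAs 82 passed in replicate 1 (7.88%), 64 in replicate 2 (6.15%) and 62 in both (5.96%). Of 8 epithelial marker miRNAs 5 were detected in both samples (miR-200b, miR-200c, miR-429, miR-182 and miR-183). The others, miR-200a, miR-141 and miR-96, were detected in neither. Of 23 markers of nephron, mesenchyme, endothelium, blood, muscle, nerve and liver, 0 were detected in both samples and 1, miR-214, in replicate 2 alone. The cells so carried part of the epithelial pattern given by their label.

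In the ureteric bud cells 3 of the 8 members were detected in both samples, namely miR-103, miR-107 and miR-16, against 5.96% of all miRNA probes. A further member, miR-15b, passed in replicate 2 alone, and miR-15a, miR-195, miR-497 and miR-322 passed in neither. By single sample, 3 members passed in replicate 1 (7.88% of all probes) and 4 in replicate 2 (6.15%). The median raw intensity over the 8 members was 254.1 units in replicate 1 and 70.62 in replicate 2, against 222.9 and 53.12 over all 1040 miRNAs. The members were chosen with earlier results of these arrays known, so no test was made of their share.

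The probe for miR-103 was the brightest of the 8 on both arrays. Its spots read 720.1, 810.6 and 674.8 units in replicate 1 and, in replicate 2, 153.5, 136.4 and 138.8. All 6 spots lay above the limit of their array, with medians of 2.37 and 1.71 times that limit. Among the 1040 miRNAs these medians ranked 37 and 35 from the top. Normalized between the arrays, its log2 signal was 8.21 ± 0.02 (SD, n = 2). This SD is small partly because quantile normalization gives probes of like rank like values.

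Whether the background-corrected and normalized signal stood more than 2-fold over the blank level was tested with limma (treat), fitted on all 1040 miRNAs. The size of this fold depends on the correction. In alternatives it was, for miR-103, 1.56 log2 units without background correction and 4.1 with blank subtraction. For miR-103 the signal was 1.95 log2 units over blank, and it passed (adjusted p = 0.0291, limma treat with Benjamini-Hochberg adjustment over 1040 miRNAs), higher than blank in 2 of 2 samples. Over the whole array 36 miRNAs (3.46%) passed, and miR-103 was the member among them. The call was lost with loess (adjusted p = 0.146), without background correction (0.753), and with a 4-fold bound, median scaling or no normalization (1 in each, all by limma treat). The range over 9 alternatives ran from 7.83e-09 to 1. Its lower end came from limma without a bound, which tests for any difference from blank and is not treat.

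The paralogue miR-107 gave spots of 575.9, 644.6 and 534.2 units in replicate 1 and, in replicate 2, 95.9, 114.8 and 123.0. All 6 exceeded the limit, with medians at 1.90 and 1.41 times it and ranks of 44 and 45. Its log2 signal was 7.88 ± 0.04 (SD, n = 2), or 1.62 over blank, which did not pass the 2-fold bound (limma treat, adjusted p = 0.530). It did pass in 3 of 9 alternatives: without a bound, with blank subtraction, and when only probes above the limit in a sample were fitted (limma, adjusted p = 4.13e-06, 9.32e-06 and 0.0332). Because miR-103 and miR-107 differ by G22C alone, near the 3′ end, the arrays do not show how much of either signal came from the other miRNA.

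The spots of miR-16, a broadly expressed miRNA known for repressing cell cycle genes, lay nearer the limit. They read 350.8, 388.4 and 344.6 units in replicate 1 and, in replicate 2, 82.0, 90.3 and 90.1. All 6 were above the limit, by medians of 1.16 and 1.11 times, and the lowest exceeded the replicate 2 limit of 81.1 by less than a unit. Ranks were 69 and 57 of 1040. The log2 signal was 7.27 ± 0.22 (SD, n = 2), or 1.01 over blank, and it did not pass the 2-fold bound (limma treat, adjusted p = 1). Without the bound it passed (limma, adjusted p = 0.0213).

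miR-15b, whose hairpin neighbours Mir16-2, stood on either side of the limit. Its spots read 291.8, 313.9 and 262.2 units in replicate 1 and, in replicate 2, 88.0, 101.4 and 93.0. In replicate 1 a single spot exceeded the limit, and in replicate 2 all 3 did. The medians were 0.962 and 1.15 times the limit, and the ranks 87 and 55. Of the blank spots, 99.8% and 99.6% were dimmer than this median. The replicate 1 limit is raised by a single blank spot of 916.8 units. Without the brightest blank spot of each array the limits were 243.5 and 80.4 units, and miR-15b then passed in both samples. Its signal was 0.89 log2 units over blank (limma treat, adjusted p = 1).

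**Figure D1:**
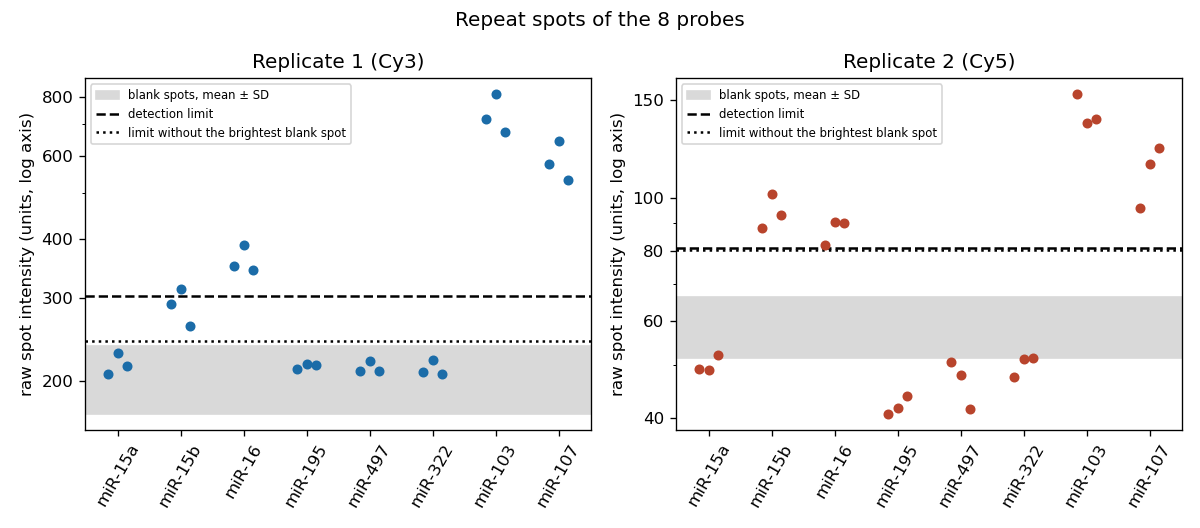
Raw intensity of the 3 repeat spots (points, from left to right by array column) of each of the 8 probes, on a log axis, in replicate 1 (Cy3, left) and replicate 2 (Cy5, right). The grey band is the mean ± SD of 560 blank spots, the dashed line the detection limit (303.2 and 81.1 units) and the dotted line the limit without the brightest blank spot (243.5 and 80.4 units). All spots of miR-16, miR-103 and miR-107 lie above the dashed line, those of miR-15b straddle it in replicate 1, and those of the other 4 probes lie below it.

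The remaining 4 members gave readings no higher than those of typical probes. On each array their 12 spots spanned 206.7 to 229.1 units (replicate 1) and 40.8 to 52.1 units (replicate 2). Their mean signals over the 2 samples were -0.23 to -0.07 log2 units relative to blank, but the sign differed between arrays. In replicate 1 they were 0.07 to 0.16 log2 units above blank, and all their spots exceeded the median blank spot of 203.1 units. The median miRNA spot of that array did so too (223.9 units). In replicate 2 they lay below the median blank spot, as did the median miRNA spot of that array (53.1 units).

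For miR-15a, the partner of miR-16 in Dleu2, the spots read 207.0, 229.1 and 215.7 units in replicate 1 and, in replicate 2, 49.0, 48.8 and 52.1. For miR-195, which is known in mouse heart for driving muscle cells out of the cell cycle after birth, they read 212.6, 217.7 and 216.4 units and 40.8, 41.8 and 43.9 units. Its median in replicate 2 ranked 1040 of 1040, the dimmest miRNA probe of that array, although its target shares 19 bases with that of miR-16.

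For its cluster partner miR-497 the spots read 210.5, 220.3 and 210.2 units in replicate 1 and, in replicate 2, 50.6, 47.8 and 41.6. For miR-322, the mouse counterpart of human miR-424, they read 209.1, 222.2 and 206.7 units and 47.5, 51.2 and 51.3 units. None of these 4 was detected under any of the 11 other detection rules tried. These miRNAs were not detectable with this background, and their absence is not shown. Fewer cells holding a miRNA and fewer copies per cell cannot be told apart in such bulk samples.

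The layout of the array allowed probes to be compared with their surroundings. The probes for miR-15a, miR-15b and miR-16 stand in rows 48, 50 and 52 of the same columns (3, 13 and 23), and those for miR-107 and miR-195 in row 40, 2 columns apart. The spot in the middle columns was the brightest of the 3 for 8 of 8 members in replicate 1, and for 47.1% of the 956 miRNAs detected in neither sample. In columns 2 to 4, 12 to 14 and 22 to 24, where the miR-15a to miR-16 group, miR-195, miR-103 and miR-107 lie, undetected probes had medians of 210, 231.2 and 220.6 units in replicate 1 and, in replicate 2, 50.6, 52.0 and 52.4. The position effect in replicate 1 was therefore about as wide as the spread of the undetected members.

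Set against the median of neighbouring miRNA spots (6 rows and 2 columns to each side), miR-103 stood 508.4 and 85.2 units above its surroundings in replicates 1 and 2. The same measure was 359.4 and 61.2 units for miR-107, 126.6 and 35.0 for miR-16, and 67.7 and 38.0 for miR-15b. It was below 0 on both arrays for miR-15a, miR-195, miR-497 and miR-322. For miR-195 it was -9.8 and -12.8 units. With a limit set on this local measure, chosen after seeing the data, miR-15b, miR-16, miR-103 and miR-107 were all detected in both samples, and 81 miRNAs over the array.

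**Figure D2:**
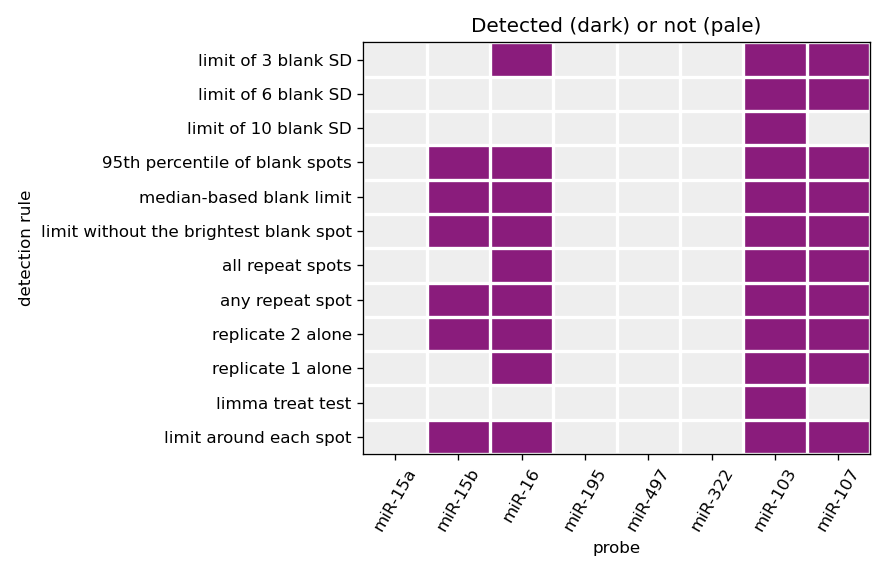
Detection of each of the 8 probes (columns) under 12 detection rules (rows), dark where the probe was detected in both samples, or in the single sample named. miR-103 is dark in every row, miR-107 and miR-16 lose the call under stricter limits, miR-15b gains it under 6 rules, and the other 4 probes are pale throughout.

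The opposite arms of the same hairpins, the strands usually discarded, were represented by 10 probes. Among them 0 were detected in either sample, against 7.88% of all miRNA probes in replicate 1 and 6.15% in replicate 2. At such shares a count of 0 among 10 probes says little about these arms. Of these, 9 had medians of 207.9 to 228.1 units (replicate 1) and 44.6 to 54.9 units (replicate 2). The tenth and brightest was miR-322*, shown for that reason: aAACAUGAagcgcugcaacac (seed in capitals). Its spots were 240.1, 249.8 and 247.5 units in replicate 1 and, in replicate 2, 57.2, 62.0 and 59.9, at 0.816 and 0.738 times the limit. In the ranking by raw intensity miR-322* stood at 125 and 133, against 967 and 719 for miR-322, although levels of different probes cannot be set against each other as abundance. The probe for miR-195* also ranked above that of its guide on both arrays, at 309 and 592 against 796 and 1040. For miR-15a* (876 and 469 against 826 and 893) and miR-497* (916 and 1035 against 945 and 966) the order changed between arrays. All these probes lay below the limit, where ranks are those of background readings. The limit without the brightest blank spot was exceeded by miR-322* in replicate 1 and not in replicate 2.

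Among 10 probes for other miRNAs of the X-linked cluster that holds Mir322 and Mir503, 1 was detected in both samples, against 5.96% of all probes. This was miR-351 (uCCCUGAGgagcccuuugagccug, seed in capitals), with spots of 478.4, 443.7 and 433.2 units in replicate 1 and, in replicate 2, 133.3, 123.2 and 122.2. All 6 exceeded the limit, and the log2 signal was 7.77 ± 0.37 (SD, n = 2), or 1.51 over blank (limma treat, adjusted p = 1). Its first 8 bases are those of miR-125b-5p, and 10 bases matched in the best ungapped alignment of the 2 targets. The other 9 probes of the cluster (miR-503, miR-503*, both arms of miR-542 and the miR-450 probes) had medians of 204.3 to 225.1 units (replicate 1) and 45.8 to 53.8 units (replicate 2). miR-503 (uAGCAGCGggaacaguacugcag, seed in capitals) also begins with AGCAGC at base 2, but has another seventh seed base. It and miR-1907, the remaining AGCAGC probes outside the 8, were not detected, with replicate 1 medians of 204.3 and 228.4 units and replicate 2 medians of 53.8 and 45.3.

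**Figure D3:**
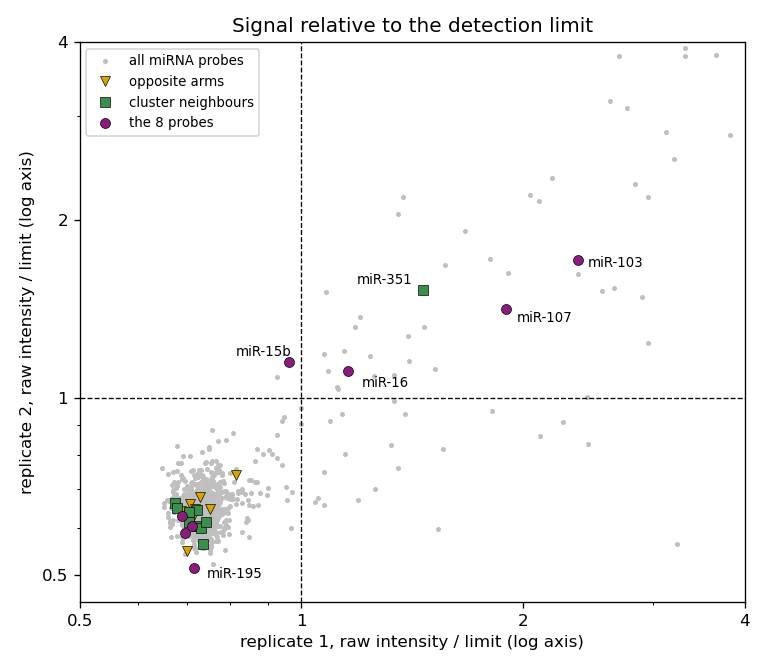
Median raw intensity of each miRNA probe divided by the detection limit of its array, replicate 1 (horizontal) against replicate 2 (vertical), both on log axes cut at 4 times the limit, which leaves out 17 brighter probes. Circles are the 8 probes, triangles their 10 opposite arms, squares 10 cluster neighbours and grey points all miRNAs; dashed lines mark the limit. miR-16, miR-103, miR-107 and miR-351 lie beyond both lines, miR-15b beyond the horizontal line alone, and miR-195 at the bottom.

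The samples were then compared for the detected members. After subtraction of the median blank spot, replicate 1 exceeded replicate 2 by 6.43 times for miR-103, 6.61 times for miR-107 and 4.67 times for miR-16. Over the 62 miRNAs detected in both samples this ratio had a median of 3.74, with quartiles of 2.98 and 5.40. Ordered from the largest ratio, miR-107 stood at 10, miR-103 at 11 and miR-16 at 25 of 62. By spot position the ratios were 5.44, 7.79 and 5.87 for miR-103, 9.95, 7.83 and 5.13 for miR-107, and 6.25, 5.81 and 4.47 for miR-16. The ratios of miR-103 and miR-107 thus overlapped each other over spots, and every spot ratio of the 3 miRNAs lay above the median of 3.74. Repeat spots share an array and are not separate samples, and 3.74 is a median of ratios per probe. The ratio of miR-16 per probe, 4.67, lay between the quartiles. For miR-15b the spot ratios were 3, 2.58 and 1.71, all below 3.74. That probe passed the limit in replicate 2 alone, so a low ratio is partly built into its inclusion. The 62 miRNAs had to pass in both samples.

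After quantile normalization the difference, replicate 1 minus replicate 2 in log2 units, was -0.02 for miR-103, 0.06 for miR-107, -0.31 for miR-16 and -0.67 for miR-15b. The median over the 62 miRNAs was -0.20, with quartiles of -0.49 and 0.09. With this normalization the 3 members detected in both samples lay between the quartiles, and miR-15b lay below them. Since miR-15b passed the limit in replicate 2 alone, its inclusion favours a negative difference. With loess the differences were 0.45 for miR-103 and 0.32 for miR-107, against a median of -0.08. The 2 dyes each had 1 sample, so no test of these differences was possible. Without normalization all 4 differences were positive (2.01, 1.87, 1.20 and 0.72), as was the median of the 62 miRNAs (1.43), and relative to it miR-15b and miR-16 were still lower and miR-103 and miR-107 higher. By the blank-subtracted ratio miR-16 lay above the median, and miR-103 and miR-107 exceeded the upper quartile of 5.40, so the place of all 3 among the detected miRNAs depended on the measure.

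**Figure D4:**
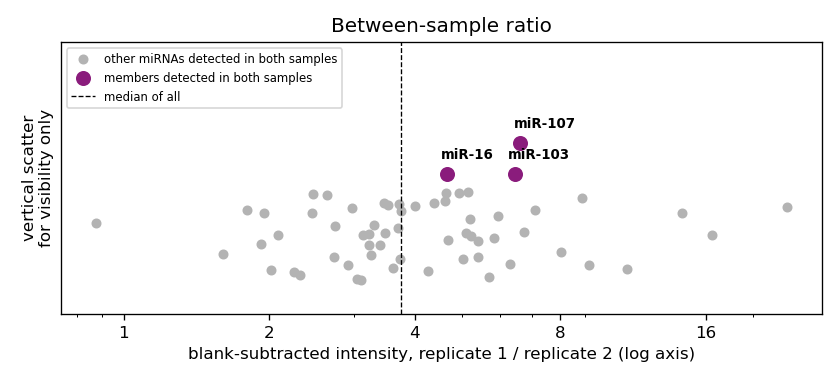
Blank-subtracted intensity of replicate 1 divided by that of replicate 2 (log axis) for the 62 miRNAs detected in both samples, each a point, with vertical scatter for visibility only. The dashed line is the median of 3.74; the 3 members (large points) lie to its right, miR-16 at 4.67, miR-103 at 6.43 and miR-107 at 6.61.

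The coefficient of variation between repeat spots, after blank subtraction, was 13.0% and 10.9% for miR-103 in replicates 1 and 2. It was 14.6% and 26.3% for miR-107, and 15% and 16.2% for miR-16. The medians over the 62 detected miRNAs were 8.09% and 11.8%. The spots of all 3 miRNAs thus scattered more than the median in replicate 1, as did those of miR-107 and miR-16 in replicate 2.

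A value table deposited for the same arrays gives whole-number intensities, with medians of 10 and 9 over 1040 miRNAs. Its values followed the blank-subtracted raw intensities closely over the 62 detected miRNAs (Spearman's rho across probes, 0.987 and 0.995), so its direction is settled, while its scale and centring stay unknown. It gave 876 and 726 for miR-103, 607 and 507 for miR-107, 261 and 316 for miR-16, and 135 and 359 for miR-15b in replicates 1 and 2. The other 4 members were at 18 or lower, with miR-195 listed at 0 in replicate 2. The log2 differences in this table, replicate 1 minus replicate 2, were 0.27 for miR-103, 0.26 for miR-107, -0.28 for miR-16 and -1.41 for miR-15b, against a median of -0.24 over the 62 detected miRNAs. The value of miR-16 thus lay close to that median.

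The detected miRNAs nearest to each member were found by Euclidean distance of normalized log2 signals over the 2 samples, among the 59 other miRNAs detected in both. For miR-16 they were let-7g (distance 0.12), miR-455 (0.13) and miR-361 (0.14). For miR-103 they were miR-705 (0.11), miR-2861 (0.25) and miR-1187 (0.30), and for miR-107 they were miR-1187 (0.28), miR-151-5p (0.39) and miR-705 (0.40). With 2 samples this likeness is one of probe brightness.

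**Figure D5:**
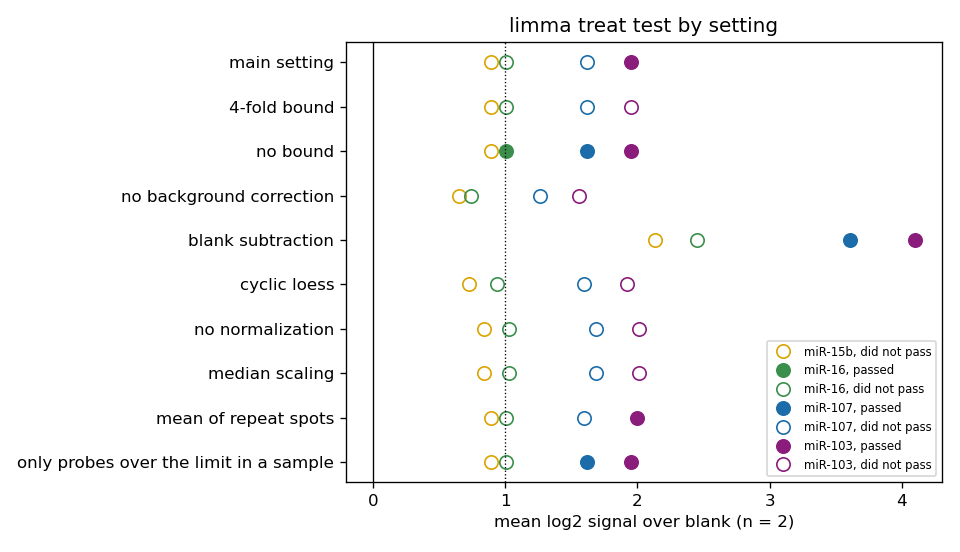
Mean log2 signal over blank (n = 2) of miR-15b, miR-16, miR-107 and miR-103 under 10 settings of limma. Points are filled where the adjusted p passed 0.05 and open where it did not. The test was treat, except without a bound, where limma tested for any difference from blank. The dotted line marks the 2-fold bound. The main setting, the 4-fold bound, no bound and the fit on probes above the limit share the same signals. So do no normalization and median scaling. miR-103 is filled in 5 settings, miR-107 in 3, miR-16 without a bound and miR-15b in none.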

How the data were processed

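Small RNA (under 300 nt) from 4 µg of total RNA was poly(A)-tailed, tagged and stained at LC Sciences, a service provider (per the labels' protocols). The authors deposited the mean intensity of every spot and its SD, per the file headers, with no background subtraction, and a value table of processed intensities whose steps, like the scanner and software, were not given in the sources used here.

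Detection used raw intensities against the 560 blank spots of each array. For signal levels, intensities were corrected with normexp (offset 50), log2-transformed, quantile-normalized over miRNA spots and summarised per probe by the median spot. The blank level of each array was its median corrected blank spot, interpolated onto the normalized scale. It was 6.06 log2 units in replicate 1 and 6.46 in replicate 2. The test of signal over blank used limma 3.58.1 in R 4.3.3 (treat, 2-fold bound, variance trend, Benjamini-Hochberg adjustment over 1040 miRNAs, threshold 0.05). Its prior degrees of freedom were infinite, so probes of like signal shared a variance. Blank subtraction, as an alternative, used a floor of 10 units. Without a bound, limma (eBayes) tested for any difference from blank in place of treat. The procedures were checked on simulated data with values drawn independently. That check does not cover the position effect of the arrays or the alternative normalizations.

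The 8 members and all lists were chosen with earlier results of these data known. The miRNAs named were these 8, their opposite arms, their cluster neighbours, other AGCAGC probes, the marker lists and the 3 detected miRNAs nearest to each detected member. The array's older names miR-450a, miR-450a-1* and miR-450a-2* were read as the arms listed. No difference between the 2 samples was tested. The p-values rest on the spread between these samples pooled over probes of like signal, not on each probe's own spread. That spread may be technical. Signal over background and the number of arrays limit the precision. Sequences and gene neighbours are from RefSeq tables of GRCm38.p6.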

Additional observations from a re-analysis of the deposited data

How the results depend on the processing

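The number of members detected in both samples, 3, was 2 at 6 blank SD, 1 (miR-103) at 10 blank SD, 1 (miR-103) by the treat test of limma, and 3 or 4 under 8 other rules, the fourth being miR-15b. Replicate 1 alone gave 3 and replicate 2 alone 4. Over all miRNAs the count of 62 became 33 at 10 blank SD and 36 with treat. The number of members passing the treat test, 1 (2 at an unadjusted p under 0.05), was 3 without a bound, where limma tested for any difference from blank. It was 2 with blank subtraction and when only probes above the limit in a sample were fitted. It was 0 by limma with no background correction, loess, a 4-fold bound, no normalization or median scaling, where 1, 2, 0, 0 and 0 members had an unadjusted p under 0.05. Over all miRNAs the 36 passing became 13 with a 4-fold bound, 68 without a bound, 59 with blank subtraction, and 2 with median scaling or no normalization. The cause was not tested. A test without replicate 1 or replicate 2 leaves no residual degrees of freedom and was not run. Detection by presence in the deposited value table was not run, since it lists every probe. No paired analysis was possible because there is a single group.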
